A study of Drosophila melanogaster with 3 samples.

Results

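Of the 10688 reproducible Traffic jam summits on the Drosophila melanogaster genome, 1260 (11.8%, 95% Wilson interval 11.2 to 12.4%) lay in introns far from any transcription start. They were chosen by position alone: the summit is more than 5000 bp from the nearest annotated transcription start site (TSS) of any gene, inside an annotated gene with transposable elements left out, and in no annotated exon. They are called distal intronic summits below. A summit is the base of highest enrichment in a called peak, and the reproducible list is the set of peaks that passed an irreproducible discovery rate (IDR) comparison of the replicates. The experiment was chromatin immunoprecipitation with sequencing on whole adult females of 1 transgenic fly line that stably makes Traffic jam with GFP at its C terminus (tj-eGFP), using an antibody against GFP. The flies' age is unknown per the labels, and chromatin was sonicated to 200 to 800 bp. All 3 samples are biological replicates of this 1 group, and no group without the fusion protein was analysed here. Because whole flies were used, sites from many tissues are combined, and the fusion protein in many cells cannot be told apart from strong occupancy in few.

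Traffic jam belongs to the large Maf proteins, transcription factors with a basic leucine zipper, and is best known in the fly from the somatic cells of the ovary and testis. Large Maf proteins bind as dimers to Maf recognition elements, palindromes whose arms each carry the letters TGCTGA. Long introns of fly genes are known to hold many enhancers, which can act on a start many kilobases away.

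Sequences are shown for the strongest sites, the strongest that carry a Maf core and the closest plus-strand matches to the full Maf site. All are from 2L, 3L, 3R and X. Each line gives the host gene, the position in dm6 (sequence from the NCBI Release 6 assembly) and the 60 bases on each side of the summit. The 4 strongest distal intronic summits on these arms come first, and none holds TGCTGA on either strand in the stretch shown.
l(3)L1231, chr3R:14649991-14650111, plus strand: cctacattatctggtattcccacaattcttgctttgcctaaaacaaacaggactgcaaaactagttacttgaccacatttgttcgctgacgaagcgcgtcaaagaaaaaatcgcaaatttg
mld, chr3R:24601185-24601305, plus strand: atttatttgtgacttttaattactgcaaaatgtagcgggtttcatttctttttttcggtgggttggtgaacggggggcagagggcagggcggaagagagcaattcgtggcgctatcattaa
lncRNA:CR45668, chrX:5886849-5886969, plus strand: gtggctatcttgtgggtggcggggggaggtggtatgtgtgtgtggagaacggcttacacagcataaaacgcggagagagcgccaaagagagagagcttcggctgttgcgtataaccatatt
ftz-f1, chr3L:18790620-18790740, plus strand: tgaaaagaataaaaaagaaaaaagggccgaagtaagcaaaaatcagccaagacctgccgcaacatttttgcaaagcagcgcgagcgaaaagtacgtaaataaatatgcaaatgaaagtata
The next 3 are the strongest on these arms with the 7-base Maf core TGCTGAC inside the stretch shown, on either strand, and capitals mark the core or the 6 letters TGCTGA. On these arms a summit in spen ranked between the first and the next of them, by values it shared with a stronger neighbour. Its core lay more than 60 bp from the summit and is not shown.
Eip75B, chr3L:18012105-18012225, plus strand: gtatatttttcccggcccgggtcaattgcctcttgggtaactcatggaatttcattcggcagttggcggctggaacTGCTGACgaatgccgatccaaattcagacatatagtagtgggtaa
tara, chr3R:16250329-16250449, plus strand: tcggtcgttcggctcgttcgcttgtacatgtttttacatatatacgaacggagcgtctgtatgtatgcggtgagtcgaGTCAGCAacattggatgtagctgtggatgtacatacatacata
bves, chrX:21074089-21074209, plus strand: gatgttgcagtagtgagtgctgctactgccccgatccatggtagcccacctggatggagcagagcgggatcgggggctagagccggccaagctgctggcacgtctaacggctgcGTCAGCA
The last 4 have the fewest mismatches to the 13-base palindromic Maf site, read on the plus strand only, inside the stretch shown. They are on these arms, with ties taken in order of signal, and capitals mark the 13 bases that align best. The middle base of the site differs between the strands, and closer matches on the minus strand were not counted. The end of the bves stretch above is closer to the site on the minus strand than on the plus strand. The fz2 site has 1 mismatch and the other 3 have 2.
fz2, chr3L:19219656-19219776, plus strand: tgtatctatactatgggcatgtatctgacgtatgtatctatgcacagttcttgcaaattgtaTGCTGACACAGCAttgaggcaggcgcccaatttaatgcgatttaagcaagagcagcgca
Samuel, chr2L:11049854-11049974, plus strand: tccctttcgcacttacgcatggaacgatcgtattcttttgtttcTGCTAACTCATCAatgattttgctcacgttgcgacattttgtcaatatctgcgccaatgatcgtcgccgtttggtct
CG31145, chr3R:23620374-23620494, plus strand: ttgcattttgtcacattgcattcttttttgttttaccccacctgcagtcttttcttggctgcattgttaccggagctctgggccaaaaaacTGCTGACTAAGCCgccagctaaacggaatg
Drak, chrX:11510529-11510649, plus strand: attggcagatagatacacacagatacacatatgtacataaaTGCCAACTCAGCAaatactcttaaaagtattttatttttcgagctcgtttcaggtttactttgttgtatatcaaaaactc

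The summits were sparse for the sequence that could hold them. Introns over 5000 bp from any TSS make up 28.3 Mb, or 21.1% of the 6 chromosome arms, and held 44.6 summits per Mb. The whole list had 79.8 per Mb, so the density was 0.558 times the overall one. Introns between 500 and 5000 bp from a TSS (called proximal introns here) held 121 per Mb. Sequence outside genes and beyond 500 bp of a TSS held 24.3 per Mb. In each replicate's own 10688 strongest peaks, distal introns held 11.7% of summits in replicate 1, 11.7% in replicate 2 and 11.99% in replicate 3, a mean of 11.8% ± 0.146 (SD, n = 3). Of the 1260 summits, 971 (77.1%) were matched within 200 bp in all 3 of these lists, compared with 76.1% of promoter and 77.7% of proximal intronic summits. Another 221 were matched in 2, 68 in 1 and 0 in none. Because the same replicates entered the IDR comparison, part of this match is built in.

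Density fell with distance from the nearest TSS, while the signal of the summits that were present overlapped between distance classes. Distal introns at 5 to 10 kb held 713 summits (64.4 per Mb), those at 10 to 20 kb held 434 (50.7 per Mb) and those at 20 to 50 kb held 110 (22.5 per Mb). Beyond 50 kb, 3 summits lay in 3.75 Mb (0.80 per Mb). However, 5 coding genes with 372 kb (DIP-lambda) to 1905 kb (Myo81F) of eligible sequence each held no summit. Soft-masked repeats made up 32.2% to 46.6% of them, and their part in the fall with distance was not tested. The median distance was 9062 bp, and the farthest summit lay 60625 bp from a start. Signal is given relative to the replicate: the caller's value divided by that replicate's median over IDR summits found in all 3 replicate lists, so 1 is a typical summit. The strongest replicate summit within 200 bp was taken for each IDR summit, so neighbouring summits can share a value. At 5 to 10 kb the median relative signal was 0.93, 0.94 and 0.98 in replicates 1, 2 and 3. At 20 to 50 kb it was 0.94, 0.95 and 0.92, so the replicate values of these classes overlapped.

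**Figure D1:**
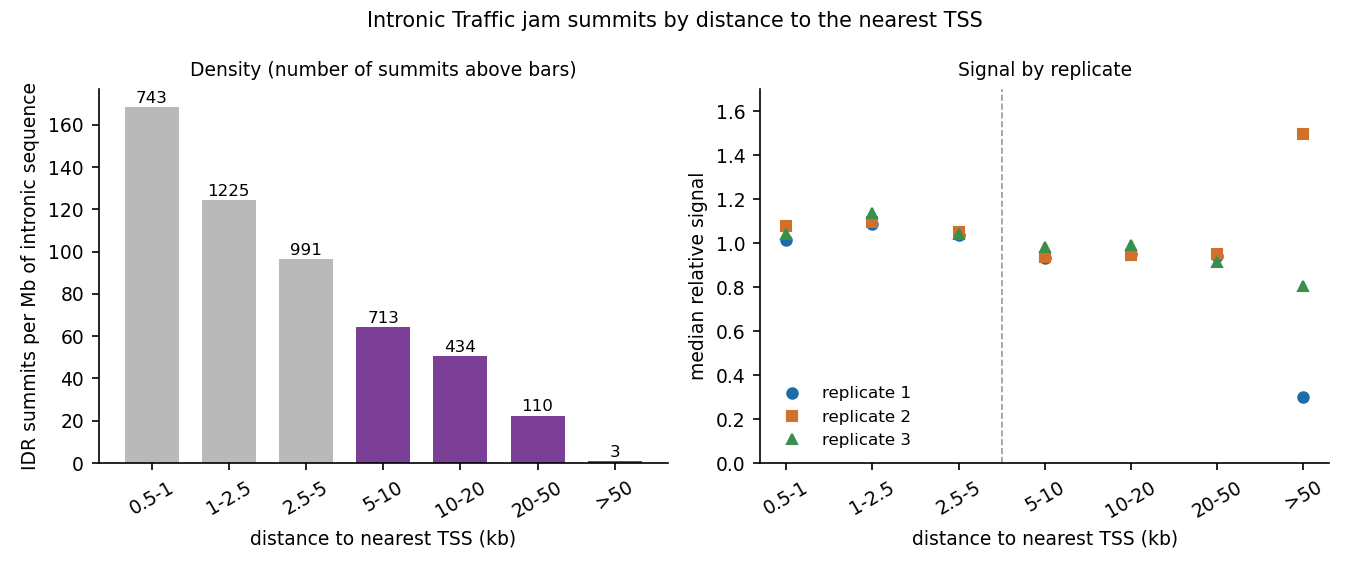
Intronic IDR summits by distance to the nearest TSS (x axis, kb), as summits per Mb of intronic sequence in the distance class (left, counts above bars) and as median relative signal in each replicate (right). Purple bars, and points right of the dashed line, are over 5 kb from any TSS: density falls from 64.4 to 0.80 per Mb, and the last class has 3 summits. The part of very long genes without a summit in this fall was not tested.

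Compared with proximal introns, distal intronic summits were slightly weaker in every replicate. The median relative signal of the 1228 distal summits found in all 3 replicate lists was 0.942, 0.944 and 0.980 in replicates 1, 2 and 3. Proximal intronic summits had 1.06, 1.08 and 1.07, so the replicate values of the classes did not overlap. On the log2 scale the difference was -0.17, -0.19 and -0.12, a mean of -0.16 ± 0.03 (SD, n = 3). An exact two-sided sign-flip permutation test over the replicates gave p = 0.25, the smallest that 3 replicates allow. Against promoter summits, within 500 bp of a TSS, the mean difference was -0.05 ± 0.05 (exact p = 0.5), and against intergenic summits it was -0.00 ± 0.02 (exact p = 1). Both were about as large as the spread between replicates or smaller, and both changed sign under other settings (0.13 against promoters in the strongest 5344 IDR peaks, 0.04 against intergenic summits with replicate summits matched within 50 bp). Individual distal summits ranged from 0.33 to 10.7 in mean relative signal, with 267 above 2 and 83 above 4. The median SD of a summit's log2 signal over replicates was 0.26, compared with 0.28 in proximal introns and 0.32 at promoters.

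The 3 summits nearest to the limit on the outside lay in ush (4987 bp from a TSS; mean relative signal 0.63 ± 0.14), Evi5 (4988 bp; 1.08 ± 0.05) and Tsp66E (4992 bp; 1.402 ± 0.05). Those nearest on the inside lay in bbg (5001 bp; 0.50 ± 0.15), rhea (5004 bp; 0.84 ± 0.09) and Wdr62 (5005 bp; 3.09 ± 0.17). The limit therefore cut through summits of both low and high signal.

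Distal intronic summits lay in long introns, which the 5000 bp limit favours by construction, and many lay close to one another. The stretch between the flanking exons of the host gene had a median length of 16.5 kb. Only 71 summits (5.63%) lay within 500 bp of any exon, a zone that makes up 12.5% of the sequence that meets the rule. The nearest TSS was the host gene's own for 772 (61.3%), and for the others it belonged to another gene. Another distal intronic summit lay within 1000 bp of 595 (47.2%) and within 5 kb of 996 (79.0%), with a median gap of 1110 bp, while 166 had none within 20 kb. These counts cover all 1260 summits, also those that share a called region, and no other class is given for comparison. A called region with more than 1 summit held 261 of the 1260 (20.7%, Wilson interval 18.6 to 23.0%), compared with 24.4% of proximal intronic and 16.5% of promoter summits. The densest 10 kb stretch held 11 summits, in sbb, followed by 10 in simj and 9 in Eip74EF.

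By chromosome arm, density in sequence meeting the rule was 56.6 per Mb on 2L (234 summits), 50.8 on 3L (274), 47.3 on X (254), 37.9 on 3R (313), 37.1 on 2R (181) and 15.5 on 4 (4). On X the distal intronic density was 0.516 times that of all IDR summits on the same arm, and this ratio ran from 0.472 on 2R to 0.730 on 2L over the 5 long arms. So X, which had 91.7 IDR summits per Mb in all, did not lead for distal introns. On 3R, Myo81F (1905 kb eligible) and Pzl (690 kb) held no distal summit. Nor did CG17684 (378 kb) and DIP-lambda (372 kb) on 2R, or lovit (417 kb) on 3L. The part of such genes in the differences between arms was not tested.

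The 20 strongest distal intronic summits lay in 18 host genes, with mean relative signals from 6.37 to 10.7. The first was in l(3)L1231 (3R, 14649376 to 14650688), 5146 bp from a TSS, with a relative signal of 9.61, 11.6 and 11.1 in replicates 1, 2 and 3 (10.7 ± 1.02, SD, n = 3). The gene mld, which encodes a zinc finger protein needed for ecdysone production, followed (3R, 24600792 to 24601737) with 9.56, 7.86 and 10.3. An intron of the non-coding lncRNA:CR45668 (X, 5886598 to 5887274) gave 9.86, 7.41 and 10.3. All 20 of the strongest were among the 10688 strongest peaks of each replicate, so no replicate lacked one.

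A pair of these 20 lay in ftz-f1, which encodes an orphan nuclear receptor of the ecdysone cascade. The stronger (3L, 18790354 to 18791214, 10629 bp from a TSS) had 8.43, 6.75 and 8.83, and the other (3L, 18781354 to 18782144, 16007 bp) had 7.71, 5.98 and 9.84. Both were lowest in replicate 2. Further nuclear receptor genes were Hr4 (X, 1966239 to 1967173; 7.12 ± 0.85) and Eip75B (3L, 18011666 to 18012488; 6.57 ± 0.69), both hormone-responsive regulators. Of the 20, Eip75B was the only one with the Maf core within 100 bp, and 4 held TGCTGA, compared with 8.97% and 23.2% of all distal intronic summits.

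In the receptor tyrosine kinase and morphogen pathways, cic, the gene of the repressor Capicua, had 6.88, 7.68 and 9.09 (3R, 20274384 to 20275151, 18346 bp from a TSS). The cell-surface proteoglycan gene dally had 7.38, 7.50 and 8.07 (3L, 8869055 to 8869989, 19090 bp), the tightest of these triplets after osp (7.29, 7.06 and 7.09). Snoo, which encodes a SMAD corepressor, had 6.60 ± 0.77 and PRAS40, a regulator of Tor signalling, had 6.72 ± 0.93. Zinc finger genes were elB (7.26 ± 1.29), klu (6.41 ± 1.53) and mamo. In mamo 1 region held 2 of the 20 (X, 13971975 to 13973607; 7.04 ± 0.38 and 6.37 ± 1.53), with a shared value in replicates 1 and 3. The second had a deposited IDR list signal of 513, against 3445 for the first and a median of 455 over all IDR summits. Its place among the 20 thus rests largely on the shared values. The others were CG31869 (7.65 ± 1.02), kmr (7.27 ± 0.67), lilli, a nuclear protein gene (6.89 ± 0.84), and pyd, the fly ZO-1 gene of cell junctions (6.72 ± 0.65). Their replicate ranges overlapped along most of the list, so the order within it is loose.

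**Figure D2:**
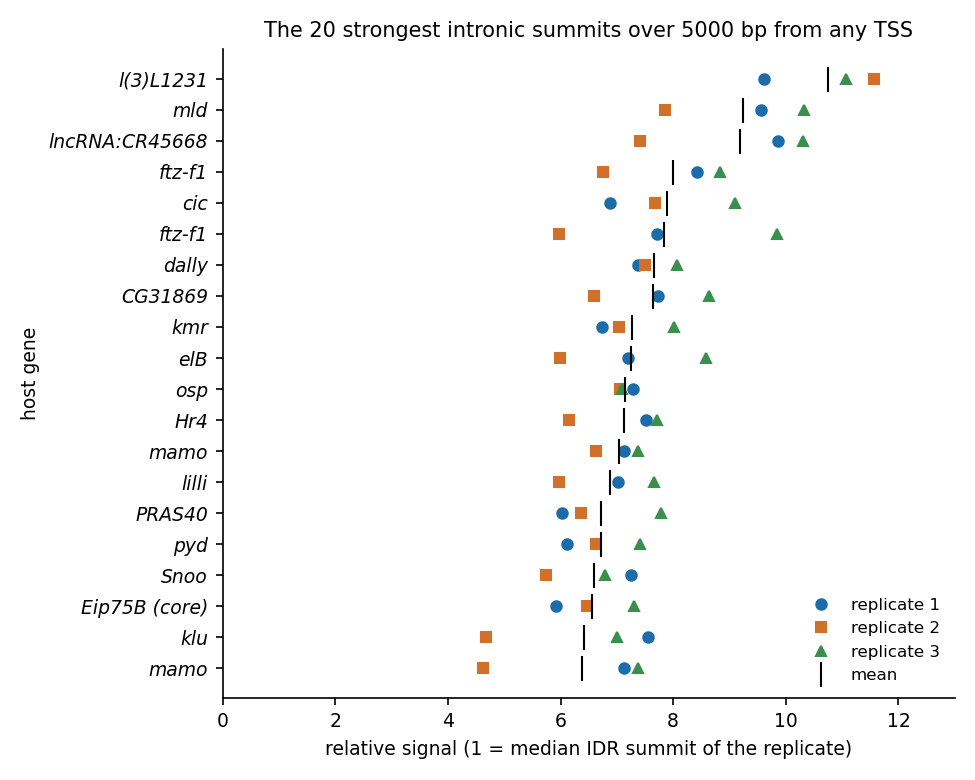
Relative signal (x axis; 1 is the median IDR summit of the replicate) of the 20 strongest distal intronic summits in each replicate, with the mean as a bar and host genes on the y axis. Means run from 10.7 down to 6.37, and "core" marks the only summit with the Maf core within 100 bp.

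The Maf core was present at a minority of distal intronic summits, and it was centred on them. Of the 1260, 113 held TGCTGAC on either strand within 100 bp (8.97%, Wilson interval 7.51 to 10.7%, counting error only). Windows of the same 201 bp length 1000 bp away on either side held it in 2.06%. Over all IDR summits the share was 6.84%. Over windows of this length tiled across the sequence that meets the rule it was 2.53%. The middle of the nearest core lay a median of 24 bp from the summit, and at 87 of the 113 summits it lay within 50 bp. The shorter TGCTGA, which every core contains, was at 292 summits (23.2%), against 9.37% of flanking windows, 19.9% of all IDR summits and 10.5% of tiled windows. The 8 strongest distal intronic summits off 2R lacked both within the 60 bases on each side.

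Each replicate gave the same picture from its own strongest peaks. Distal intronic summits held the core in 9.33%, 8.69% and 9.29% in replicates 1, 2 and 3, and their flanks in 2.35%, 2.07% and 2.58%. The mean excess was 6.77 ± 0.186 percentage points (SD, n = 3), higher at summits in 3 of 3 replicates (exact two-sided sign-flip permutation p = 0.25, the smallest possible). The share exceeded that at promoter summits by 4.25 ± 0.268 points and that at proximal introns by 0.973 ± 0.226 points, each in 3 of 3 replicates (exact permutation p = 0.25). From intergenic summits it differed by -0.230 ± 0.447 points (exact p = 0.5), within the spread. The difference from promoters was the largest of these, relative to the spread between replicates.

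**Figure D3:**
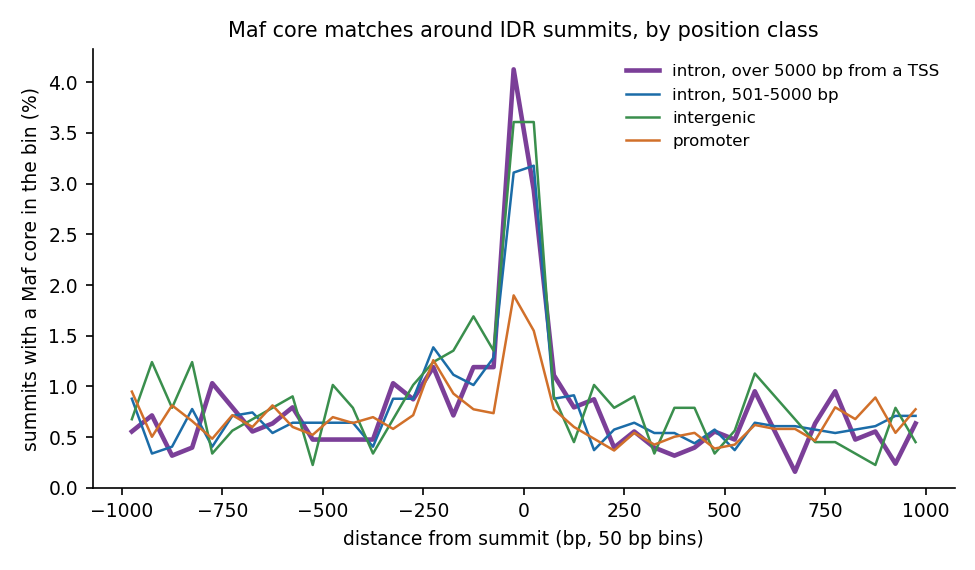
Share of IDR summits (y axis, %) with a Maf core beginning in each 50 bp bin around the summit (x axis, bp), by position class. The line for introns over 5000 bp from a TSS peaks at 4.13% in the bin just left of the summit, where promoters reach 1.90%.

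Distal summits with the core were stronger than those without it. Their median relative signal was 1.19, 1.07 and 1.24 in replicates 1, 2 and 3, compared with 0.930, 0.938 and 0.961 for the others. The log2 difference was 0.36, 0.19 and 0.37 (0.31 ± 0.10, SD, n = 3). At promoters the same difference was 0.76 ± 0.17. Neighbouring summits with and without a core can share a value, and the part of this in these differences was not tested. Among 4 equal groups of 307 distal summits ordered by signal, the core was at 6.51% of the weakest (Wilson interval 4.26 to 9.85%) and 11.1% of the strongest (8.03 to 15.1%), with overlapping intervals. A core was therefore absent from most of the strongest sites as well.

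Down the full replicate lists, distal introns took a larger share of weaker peaks while the core became rarer in them. Of the strongest 3000 peaks of a replicate, 11.9% ± 0.255 (SD, n = 3) were distal intronic, and 11.96% ± 1.11 of these held the core. Of the weakest 3000 of the 30000 listed, 19.5% ± 1.86 were distal intronic, and 3.17% ± 0.247 of these held it, near the 2.53% of tiled windows. The deposited replicate lists are relaxed and include background.

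The palindromic Maf site was read on the plus strand only, with up to 2 mismatches allowed. It was within 100 bp of 13 distal intronic summits (1.03%), against 0.40% of flanks and 1.09% of all IDR summits. Matches that come within this limit only on the minus strand are missing from these counts. None matched it in full on the plus strand. The best of the counted matches was in fz2, which encodes a Wnt receptor (3L, 19219364 to 19219906). The relative signal there was 2.90, 2.22 and 2.69 in replicates 1, 2 and 3. Samuel (2L, 11049716 to 11050189) had 3.25, 2.21 and 3.35, and CG31145 (3R, 23620202 to 23620651) had 3.07, 2.48 and 2.54. The others were in nmo, which encodes the Nemo kinase (1.84 ± 0.39), the kinase gene Drak (1.59 ± 0.15), CG42747 (1.55 ± 0.38), the Notch receptor gene N (1.02 ± 0.17), CheB42c (0.99 ± 0.16), chn (0.95 ± 0.14), bun (0.78 ± 0.17), bab1, an ovary patterning gene (0.76 ± 0.05), sano (0.66 ± 0.22) and the Hox gene Antp (0.62 ± 0.17). The signals of these plus-strand matches thus spread from below the class median of 0.99 to about 3 times the typical summit. The stronger bves summit (5.77 ± 0.34), with a close match on the minus strand, is not among them.

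Other motifs were scored on both strands in the same windows, as matches of letters and not as sites. The GAGA motif GAGAG was at 26.1% of distal summits, 21.7% of flanks and 27.4% of all IDR summits, and the repeat CACACACA was at 8.41%, 6.19% and 8.74%. AP-1 letters TGANTCA, which fall within the palindromic Maf site, were at 5.56%, 4.72% and 5.64%. Below their flanks were the GATA letters AGATAA or TGATAA (18.3% against 23.3%; 22.2% of all IDR summits), the ETS letters CCGGAA (2.22% against 3.81%; 4.23%) and the Zelda letters CAGGTAG (0.635% against 0.992%; 0.80%). The DRE letters TATCGATA, known from core promoters, were at 0.159% of distal summits and 4.84% of promoter summits (2.49% of all IDR summits). Across tiled windows the shares were 21.7% for GAGAG, 22.0% for GATA, 4.86% for ETS and 0.444% for DRE. The GC content of the windows was 41.5%, against 40.7% in the flanks.

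Among all 6-base words, the letters of the Maf site ranked highest. Of 1447 words present in over 5% of windows, 28 (1.94%) were at least 1.5 times as frequent at distal summits as in their flanks. The first was TGCTGA (ratio 2.47) and the next GCTGAC (2.46), which is the end of the core and was at 19.6% of summits against 7.98% of flanks. CTGACG followed (7.06% against 3.53%). Of the 20 words ranked highest, those unrelated to the Maf core included CCCCCC (11.4% against 6.43%) and AGCGAG (12.3% against 7.14%).

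The 1260 summits fell in 403 host genes, or 22.2% of the 1812 genes with any sequence that meets the rule. Overlapping genes share summits, and 60 summits lay in more than 1 gene. Only non-coding genes hosted 20 of them. Summits were concentrated: 147 hosts held 1, while 92 hosts with 5 or more held 707 summits (56.1%). The median host had 14.8 kb of eligible sequence and the median gene without a summit had 4.21 kb, so length differed between them.

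Genes with a summit at their own start held far more distal summits for the same length. Of the 403 hosts, 299 (74.2%) had an IDR summit within 500 bp of one of their own TSSs, against 456 of the 1409 other genes (32.4%). Each replicate was also taken alone, with its own 10688 strongest peaks for both measures and coding genes only. Genes with a start summit then held 96.0, 105 and 106 distal summits per Mb in replicates 1, 2 and 3, and genes without one held 15.0, 12.4 and 12.6. The log2 ratio was 2.94 ± 0.23 (SD, n = 3; exact two-sided sign-flip permutation p = 0.25, the smallest possible), higher in 3 of 3 replicates. The direction was the same at every gene length examined. With up to 5 kb of eligible sequence the densities in the IDR list were 163 and 42.3 per Mb, and with over 50 kb they were 60.4 and 8.06 per Mb.

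**Figure D4:**
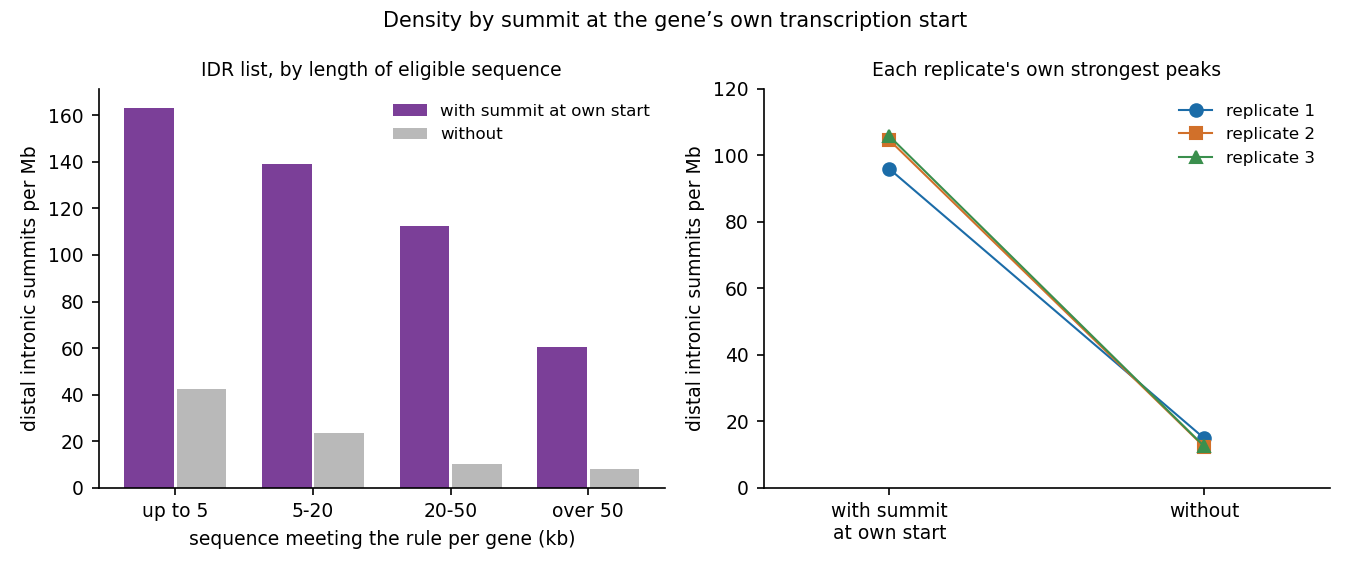
Distal intronic summits per Mb (y axes) in coding genes with and without a summit within 500 bp of their own TSS, for the IDR list by length of eligible sequence per gene (left) and for each replicate's strongest peaks (right). The density with a start summit is 163 against 42.3 in the shortest class and 60.4 against 8.06 in the longest, and 96.0 to 106 against 12.4 to 15.0 across the replicates.

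Within the hosts that had a start summit, the strongest distal summit was often the stronger of them. In 290 such hosts both had a signal in all 3 replicates. The distal summit was the stronger in all 3 replicates in 150 (51.7%) and the weaker in all 3 in 92 (31.7%), and the other 48 differed between replicates. The median log2 difference was 0.45, 0.18 and 0.49 (0.37 ± 0.17, SD, n = 3; exact permutation p = 0.25). Many hosts held several distal summits, of which the strongest was taken, and the part of their number in this difference was not tested.

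Most summits were in sbb, which encodes a transcriptional corepressor, with 21 in the IDR list and 21, 24 and 22 in the replicates' own strongest peaks. Eip74EF, an ecdysone-induced ETS factor gene, held 20, with 13, 18 and 18 in the replicates, so replicate 1 was lower. The cell-surface protein gene mtgo held 15 (14, 16 and 14) and kek5, which encodes a transmembrane protein with leucine-rich repeats, 14 (11, 13 and 14). The overlapping genes CG46467 and Glut4EF shared the same 13, as the genes overlap along their length. Hr4, Snoo and pyd also held 13 each, and CG31145 and stx held 12 each. Per length, sbb (59.1 per 100 kb of eligible sequence), stx (54.3) and Eip74EF (51.96) were densest of these genes, and kek5 (12.99) was the least dense.

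These clusters were built of summits of moderate strength. In sbb the median relative signal was 1.18, the range 0.52 to 3.47, and none of the 21 held the core. In Eip74EF the median was 1.19, the range 0.40 to 2.503, and 1 of 20 held it. In mtgo the range was 0.69 to 4.19, with 1 core, and in kek5 it was 0.43 to 4.18, with 2. Hr4 had the highest median of these genes (1.51, range 0.61 to 7.12), while Snoo and pyd reached 6.60 and 6.72 over medians of 0.91 and 1.03.

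**Figure D5:**
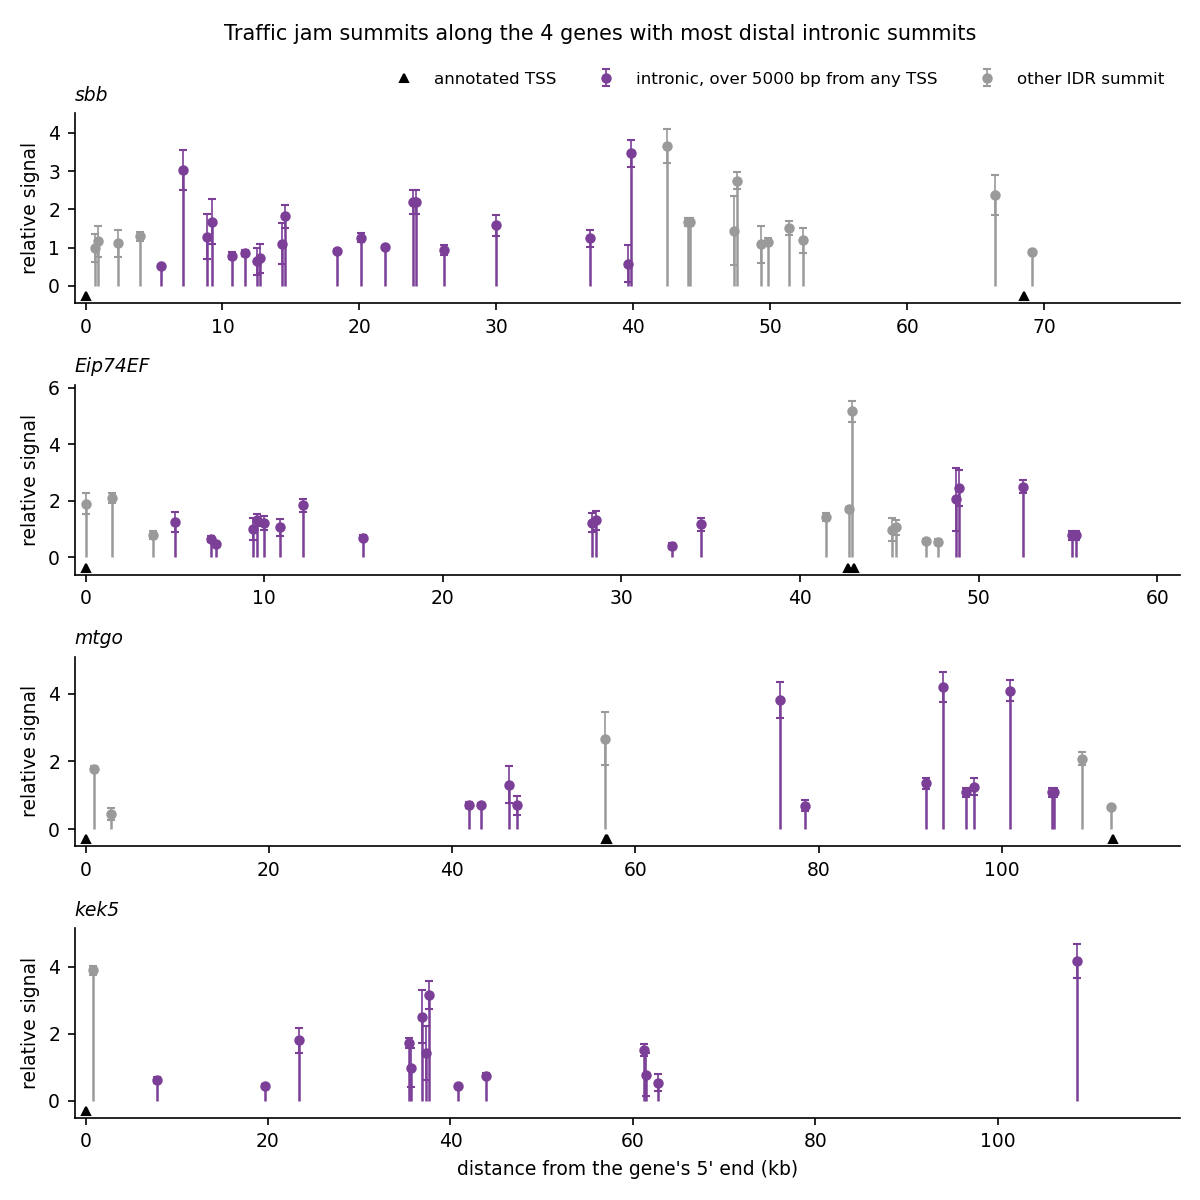
Mean relative signal (y axes; error bars are SD over 3 replicates) of IDR summits along the 4 genes with most distal intronic summits, by distance from the gene's 5' end (x axes, kb). Purple summits are distal intronic (21 in sbb, 20 in Eip74EF, 15 in mtgo and 14 in kek5, those found in all 3 replicate lists shown), grey ones are other IDR summits, and triangles are annotated TSSs of the gene.

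Among the gene lists, ecdysone and nuclear receptor genes held the most. Of their 16 members with eligible sequence, 12 (75%) hosted a distal summit, beside 22.2% of all eligible genes, and they held 86 summits at 203 per Mb, beside 44.6 per Mb. The density in the replicates' own strongest peaks ran from 179 to 205 per Mb. After ftz-f1, Hr4 and Eip75B, the strongest was in EcR, the ecdysone receptor gene (2R, 6120298 to 6121034; 6.13 ± 0.44), a summit with the Maf core within 100 bp. EcR held 8 in all and 8, 10 and 7 in the replicates. In br, the Broad zinc finger gene of the same cascade, 44.0 kb was eligible and no replicate's strongest peaks had a summit there. A summit at the gene's own start was present at 11 of the 16, compared with 755 of 1812 eligible genes.

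Signalling genes hosted summits at 16 of 33 (48.5%; 101 per Mb). Delta, entered in the list as Dl, is not among these 33, though it held 2 summits (the stronger at 2.68 ± 0.46). After dally, the strongest were in the insulin receptor gene InR (3R, 21604551 to 21605780; 4.13, 5.16 and 5.57 in replicates 1, 2 and 3) and foxo, the forkhead factor gene downstream of it (3R, 14067387 to 14068942; 5.01, 4.52 and 4.70). Egfr held 2, the stronger at 1.00 ± 0.09. Genes of RNA binding and translational control did so at 12 of 20 (60%), at a lower density of 29.9 per Mb. They were led by spen (2L, 166170 to 167208; 5.05, 8.36 and 5.30, highest in replicate 2), the translational repressor gene brat (4.47 ± 0.58) and sm (3.33 ± 0.43).

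Regulators of the gonad soma and follicle cells, where Traffic jam is best known, hosted summits at 11 of 24 (45.8%; 66.8 per Mb). The strongest were in mam, a Notch coactivator gene (2.65, 2.85 and 3.14 in replicates 1, 2 and 3), bun, a TSC22 family gene that acts in follicle cells (2.65, 2.82 and 2.90), and fru (3.05, 1.97 and 2.75). The bun gene held 11. The tj gene itself has no sequence that meets the rule, nor has shg, the E-cadherin gene. Adhesion and guidance genes hosted summits at 13 of 38 (34.2%; 27.5 per Mb), led by caps (4.23 ± 0.88). The fasciclin genes Fas2 and Fas3 held 6 and 7, with 5, 6 and 4 for Fas2 and 9, 8 and 7 for Fas3 in the replicates. CadN, the N-cadherin gene, held 2 in 93.2 kb, the stronger at 0.62 ± 0.14.

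Cytoskeleton genes hosted summits at 10 of 29 (34.5%), led by Zasp52 (3.48 ± 0.08), Fhos (2.31 ± 0.22) and RhoGEF64C (2.12 ± 0.27). Their density of 12.4 per Mb rests on 2.17 Mb of eligible sequence, of which Myo81F alone makes up 1905 kb with no summit. Metabolic regulators did so at 3 of 5, with foxo first, then bmm (1.11 ± 0.32) and SNF4Agamma (0.59 ± 0.03). Neural and eye patterning factors were at 6 of 26 (23.1%; 38.3 per Mb), close to all eligible genes, led by fru, jing (2.11 ± 0.18) and luna (1.96 ± 0.12). Of 12 muscle genes 1 hosted summits, Zasp52, which is also in the cytoskeleton list.

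Ion channel and synaptic genes held the fewest for their length, with hosts at 3 of 43 (6.98%) and 5 summits in 1.03 Mb, or 4.86 per Mb. The hosts were Oamb, an octopamine receptor gene (0.84 ± 0.26), the phosphodiesterase gene dnc (0.79 ± 0.20) and the potassium channel gene Ork1 (0.60 ± 0.10), all below a typical summit. Of the 43, 5 had a summit at their own start. Lists differ in gene length and in the share of genes with a start summit, whose part in these counts was not tested.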

How the data were processed

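Each of the 3 replicates, the pooled replicates and the IDR comparison gave 1 peak list on dm6. Per the labels these are ENCODE peak lists, and the signal that the authors deposited for each peak is an enrichment value in the unnamed unit of the peak caller. The summit is the deposited start plus the deposited summit offset. The aligner, the caller and the IDR threshold are not named in the labels or headers used here. Read depth is unknown, so intervals cover counting error only. The dm3 lists were not used.

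Genes and TSSs came from Ensembl release 115 (BDGP 6.54) and sequence from NCBI Release 6, limited to 6 arms. Summits matched within 200 bp. Classes were promoter (within 500 bp of a TSS), then exon, intron or intergenic. Motif windows were 201 bp, with flanks 1000 bp away. Motifs were scored on both strands, except the palindromic Maf site, which was scored on the plus strand only. Replicates were compared by exact two-sided sign-flip permutation of paired values. The 12 such tests have 3 replicates each, so no p, raw or adjusted, under 0.25 is possible.

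The summits, gene lists and tests were chosen with earlier results of these data known. Of 391 list entries, 378 matched by symbol, 6 by an older symbol and 7 not at all. Named genes are the hosts of the 20 strongest summits, the genes with most summits (ties kept), up to 3 per list with the strongest summits, hosts of palindromic matches, the 3 summits nearest the limit on each side, and tj, Fas3, Fas2, CadN, shg, br, Egfr and EcR. The class, motif and signal steps were tested on simulated data. Alternatives changed the distance limit, peak set, annotation, match distance, window and replicates. Scripts ran in Python 3.11.15, with pandas 2.3.3 for tables, NumPy 2.4.6 and SciPy 1.17.1 for the statistics, and Matplotlib 3.10.9 for the plots.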

Additional observations from a re-analysis of the deposited data

How the results depend on the processing

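Under the alternatives, 68 recomputed values stayed within the error of the reported value or kept its direction, 18 moved beyond it and 7 changed sign. With the TSS distance limit at 2500 bp, the share of IDR summits in distal introns was 21.1%, its density ratio 0.731, the share of the replicates' strongest peaks 21.0% and the share of eligible genes that are hosts 19.5%; at 10000 bp they were 5.12%, 0.398, 5.06% and 20.2%. Fewer or more introns meet those limits by construction. With protein-coding genes only, the share was 13.5% and the density ratio 0.599. In the strongest 5344 IDR peaks the core excess over flanks was 8.66 percentage points, the multi-summit share 24.3% and the host share 14.7%. With peaks matched in all 3 replicates the host share was 19.5%, and without any 1 replicate it ran from 20.1% to 20.6%, since fewer peaks were kept. The distal share was 11.5% in the strongest 5000 peaks of the replicates and 15.2% in all listed peaks.

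The small signal differences changed sign. Distal intron minus promoter was 0.13 (log2) in the strongest 5344 peaks and 0.0039 with means. Distal intron minus intergenic was 0.043 at 2500 bp, 0.00052 at 10000 bp, 0.021 with 1 summit per region, 0.038 with a match distance of 50 bp and 0.0032 with 500 bp. The cause was not tested. Distal minus proximal intron kept its direction in all alternatives run, from -0.24 to -0.09. The strongest 10688 pooled peaks are the IDR list itself, so that alternative is identical. Leaving soft-masked sequence out, added after seeing the data, gave a density ratio of 0.581. The start-summit ratio was 6.41, 8.43 and 8.42 in the replicates, and 5.90, 7.81 and 8.06 without soft-masked sequence. Read depth is unknown, which limits what an absent summit can show.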

Other observations

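Many long genes held no distal intronic summit. Of the coding genes with over 50 kb of eligible sequence, 62 (53.9%) held none in the IDR list. The 5 with the most eligible sequence, named after their values were seen, were Myo81F (1905 kb), Pzl (690 kb), lovit (417 kb), CG17684 (378 kb) and DIP-lambda (372 kb). No replicate's strongest 10688 peaks had a distal summit in any of the 5, and none had a summit at its own start in the IDR list. Soft-masked repeats made up from 32.2% (DIP-lambda) to 46.6% (lovit) of these genes, compared with 25.8% of all sequence that meets the rule, and the part of mappability in this was not tested.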
